A study of Mus musculus with 3 samples.

Results

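The genes Lep, Adipoq, Retn, Cfd, Rbp4, Vegfa, Igf1 and Nampt encode hormones, carriers, growth factors and enzymes that fat tissue releases. They were chosen by name, 8 of the 39179 genes in the deposited count table, by a rule that uses no measured value, although earlier results of these data were known. RNA had been pulled down from white fat of C57BL/6 mice aged 16 weeks that carried a Flag-FTO transgene and had been fasted overnight. Flag-IP 1 and Flag-IP 2 used an anti-Flag M2 monoclonal antibody, which recognises the tag on FTO, and IgG-IP used a nonspecific IgG. All 3 libraries came from transgenic animals, so none lacks the tagged protein, and the labels name neither the promoter of the transgene nor the number of animals behind each library. The comparison asked which RNAs came down with the tagged protein above the background of the IgG pull-down. Counts are given with the first Flag-IP library first, then the second, then IgG-IP.

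FTO removes methyl groups from adenosines in RNA. Adipokines are proteins that fat tissue secretes into the blood. Leptin, adiponectin, resistin and adipsin (the product of Cfd) are typical of fat cells in the mouse, whereas retinol binding protein, VEGF-A, IGF-1 and NAMPT are made in many tissues, the liver among them. Most secreted proteins begin with a hydrophobic signal sequence that steers them into the secretory pathway. NAMPT lacks such a sequence and also works inside the cell, where it makes the precursor of NAD.

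Codons with T as the middle base specify hydrophobic residues (phenylalanine, leucine, isoleucine, methionine and valine). To show how the starts of these coding sequences vary, the first 60 coding bases of 4 members with a signal sequence and of Nampt are shown 5′ to 3′, from GENCODE M21 transcripts (GRCm38), with such codons in capitals.
Retn: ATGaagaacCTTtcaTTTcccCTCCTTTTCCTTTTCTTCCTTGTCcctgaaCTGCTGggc
Adipoq: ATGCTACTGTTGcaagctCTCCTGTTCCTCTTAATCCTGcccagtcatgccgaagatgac
Vegfa: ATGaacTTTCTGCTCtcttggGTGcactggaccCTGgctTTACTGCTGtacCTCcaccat
Lep: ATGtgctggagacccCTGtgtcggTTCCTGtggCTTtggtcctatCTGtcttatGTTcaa
Nampt: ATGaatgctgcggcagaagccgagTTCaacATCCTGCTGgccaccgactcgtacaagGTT
Of codons 2 to 20, the share with a middle T was 63.2% in Retn, 52.6% in Adipoq and 47.4% in Vegfa. It was 42.1% in Cfd and in Igf1, 31.6% in Lep and in Rbp4, and 26.3% in Nampt. The median over 14817 tested protein-coding genes was 26.3% and the 90th percentile 47.4%, so Lep and Rbp4, with a signal sequence, lay nearer to Nampt and the median than to Retn.

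Methylated adenosines in messenger RNA often lie in the sequence GGACT, with U for T in the RNA itself. The coding strand of the 8 coding sequences held 4 such matches, in 3 genes, shown with those letters in capitals and 12 bases to either side.
Lep, coding bases 168 to 196: ggtcactggcttGGACTtcattcctgggc
Adipoq, coding bases 463 to 491: tgcaacattccgGGACTctactacttctc
Adipoq, coding bases 664 to 692: ggggaccacaatGGACTctatgcagataa
Rbp4, coding bases 369 to 397: gatcatcgacacGGACTacgacaccttcg
Retn, Cfd, Vegfa, Igf1 and Nampt held none in their coding sequence. Untranslated parts of the transcripts were not searched. The coding sequence has 477 bases in Igf1, whose longest transcript has 7052, and 777 in Cfd, whose longest has 922. Of 7433 tested protein-coding genes with a coding sequence of 300 to 1500 bases, the range into which all 8 fall, 66.2% held at least 1 match. In that range, genes with a match had a median log2 fold change of 0.08 (4921 genes, median GC 49.4%) and genes without one -0.03 (2512 genes, median GC 47.8%). The matches are letters of the reference: no methylation was measured in these libraries.

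The libraries held 98227791, 95824218 and 74176962 counts, but 28 genes, each above 100000 counts in some library, took 97.0% to 97.6% of each. The median tested gene had 24 to 26 counts. The 8 genes together had 202, 164 and 156. Fto itself had 230, 291 and 300 counts, which does not check the labels, because every library came from transgenic fat. Of all 39179 genes, 8136 were at 0 in all 3 libraries, so being counted says little about a cell type. White adipocyte markers were present, with 13 of 14 listed genes in the table and none at 0 in all 3 libraries. Their sums were 2401, 2069 and 627. The glycerol channel gene Aqp7 gave 1932, 1631 and 196 of these, and 3 of the 13 (Aqp7, Plin1 and Plin4) were called higher in Flag-IP, where 5.58% of all 17587 tested genes were. Plin1 was not called with a trend on GC content removed. Markers of other cells were present too, with sums of 636, 744 and 697 for endothelium, 252, 217 and 332 for macrophages, 363, 321 and 319 for skeletal muscle and 56, 91 and 140 for liver. Sums were 431, 376 and 363 for preadipocytes and fibroblasts, 93, 113 and 73 for lymphocytes and 19, 20 and 22 for blood cells. Of these, 2 of 5 tested muscle markers (Ckm and Tnnt3) were called higher, with log2 fold changes of 2.49 and 1.98, and 1 of 3 tested liver markers (Cps1) was called lower, at -0.96. Ckm and Tnnt3 were not called with scaling to total counts or with the GC trend removed. Cps1 was not called with upper-quartile scaling, the likelihood ratio test or the GC trend removed. Plin4 and Ckm, at 4 counts each in IgG-IP, passed the filter on low counts only through Flag-IP. Median log2 fold changes of the marker lists were 1.44 for skeletal muscle, 1.16 for lymphocytes and 0.49 for white adipocytes. They were 0.35 for preadipocytes and fibroblasts, 0.31 for endothelium, -0.29 for macrophages, -0.85 for liver and -1.74 for the 1 tested blood cell gene. The part of these cells in the values that follow was not tested. In pull-downs from tissue lysates, fewer cells of a type, less RNA per cell and less RNA recovered by an antibody cannot be told apart.

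None of the secreted adipocyte genes was called higher or lower in the Flag-IP libraries. Leptin, adiponectin, resistin, Rbp4 and Vegfa transcripts had more normalized counts in both Flag-IP libraries than in IgG-IP, while Cfd, Igf1 and Nampt had fewer in both. Cfd had too few counts to be tested, and Retn too few for a value like its own to be called. Of the 7 tested, 0 were called in either direction by edgeR's quasi-likelihood test, with p adjusted by Benjamini-Hochberg and a threshold of 0.05. Among all 17587 genes tested, 5.58% were called higher and 5.77% lower, or 11.3% in either direction. With scaling to total counts, 342 genes were called higher and 3008 lower, in place of 981 and 1015. At an unadjusted p of 0.05 the count was 3 (Adipoq, Vegfa and Lep, all higher), and DESeq2 gave no adjusted p for any of the 7. Of all tested genes, 12.9% were higher at that unadjusted level. Scaled to total counts, none of Adipoq, Vegfa and Lep had an unadjusted p under 0.05 in edgeR's quasi-likelihood test. Only Igf1 did, on the lower side, at a log2 fold change of -0.95 (edgeR unadjusted p = 0.0111, adjusted p = 0.0561). Both Flag-IP libraries lay above IgG-IP for 5 of the 8 genes and below it for 3, where the shares of all tested genes were 40.5% and 39%. The median log2 fold change of the 7 was 1.30, against 0.03 for all tested genes. Adipoq and Retn, at 3 counts each in IgG-IP, passed the filter only through Flag-IP, while Cfd was left out. With no filter beyond 1 count the median of all 8 was 1.09, against 0.13 for all 31043 genes then tested. Under total-count scaling the median of the 7 was 0.78, against -0.48 for all tested genes. The p-values rest on a spread that edgeR shared between all genes and that comes from the 2 Flag-IP libraries. The labels do not say that these are separate animals, and IgG-IP has no replicate.

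**Figure D1:**
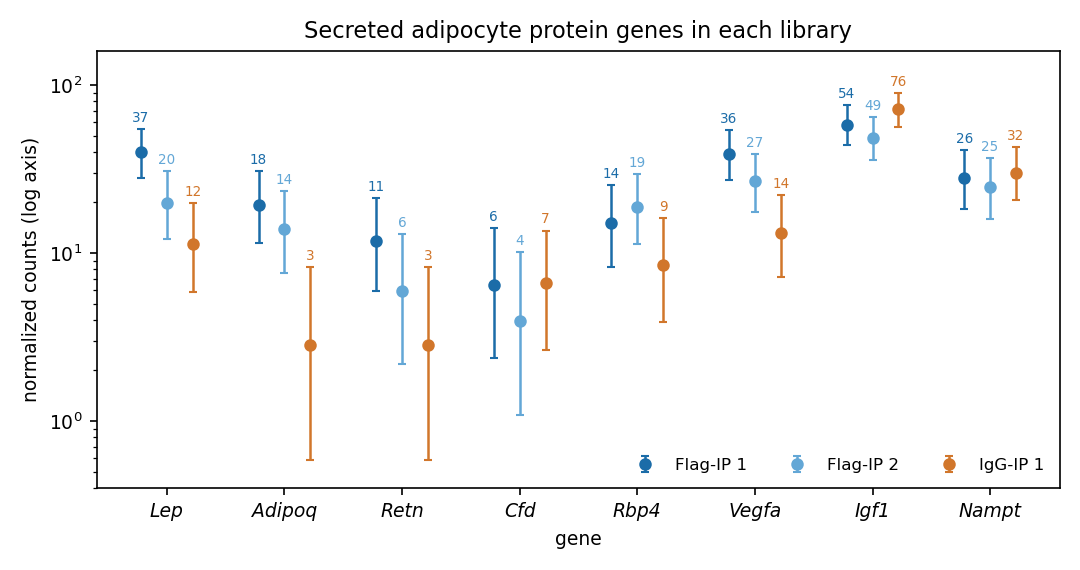
Normalized counts (log axis) of the 8 genes in the 3 libraries, with exact Poisson 95% intervals that cover counting error only and the raw count above each point. Adipoq has 18, 14 and 3 counts and the widest gap between Flag-IP and IgG-IP, while Igf1 has 54, 49 and 76 and is the only one of the 8 with a mean of at least 50 counts.

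Among the hormones typical of fat cells, adiponectin showed the largest fold change of the 7. Adipoq (ENSMUSG00000022878, chr16:23146536-23158028, GRCm38), whose product raises insulin sensitivity, had 18, 14 and 3 counts, or 19.4, 13.9 and 2.83 after normalization. Both Flag-IP libraries were far above IgG-IP, where only 3 counts were seen. This is a log2 difference of 2.50 ± 1.02 (SE; edgeR adjusted p = 0.0911). With so few IgG-IP counts, the ratio of pooled Flag-IP to IgG-IP was 5.84, and its exact 95% interval ran from 1.83 to 29.8 from counting error alone. Adipoq passed one alternative, edgeR's likelihood ratio test with a common dispersion, with an adjusted p = 0.0211, where 6.43% of all tested genes were called higher. Over the alternatives that gave one, its adjusted p ran from 0.0211 to 0.177.

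Lep (ENSMUSG00000059201, chr6:29060220-29073877), the gene for leptin, which reports fat stores to the brain, had 37, 20 and 12 counts. Normalized, these were 39.8, 19.8 and 11.3, a Flag-IP mean of 29.8 ± 14.2 (SD, n = 2). Both Flag-IP libraries were above IgG-IP. They also differed from each other, by a ratio of 2.01 with an exact 95% counting interval of 1.14 to 3.66. On the log2 scale Lep differed by 1.38 ± 0.59 (SE; edgeR adjusted p = 0.111), which was 0.80 without Flag-IP 1 and 1.81 without Flag-IP 2.

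Retn (ENSMUSG00000012705, chr8:3655770-3660110) encodes resistin, which opposes insulin action in mice. It had 11, 6 and 3 counts, the lowest total of the tested members. Its log2 fold change of 1.60 ± 1.49 (SE) was close to its own error, and the interval of its Flag-IP to IgG-IP ratio of 3.10, from 0.898 to 16.5, included 1. Of the 2754 tested genes with a mean of 5 to 10 counts, as Retn has, 1.23% were called higher. The smallest log2 fold change called higher among them was 6.59. A value like that of Retn was thus out of reach at such counts, and its not being called says little. Cfd (ENSMUSG00000061780, chr10:79890853-79892655) encodes adipsin, the protease that starts the alternative complement pathway. With 6, 4 and 7 counts it did not pass the filter on low counts. Its Flag-IP to IgG-IP ratio was 0.782, with an interval of 0.269 to 2.42, so a difference in either direction was not detectable with these counts.

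The blood carrier and the vessel growth factor lay on the side of leptin. Rbp4 (ENSMUSG00000024990, chr19:38116629-38125281), which carries retinol in plasma, had 14, 19 and 9 counts and was the only one of the 8 with more normalized counts in Flag-IP 2 (18.8) than in Flag-IP 1 (15.1). Both exceeded the 8.48 of IgG-IP, by 0.99 ± 0.77 in log2 (SE; edgeR adjusted p = 0.452). Vegfa (ENSMUSG00000023951, chr17:46016993-46032369), which drives the growth of blood vessels, had 36, 27 and 14 counts. Normalized, these were 38.8, 26.7 and 13.2, so that both Flag-IP libraries were above IgG-IP. The log2 difference was 1.30 ± 0.55 (SE; edgeR adjusted p = 0.110). Lep, Vegfa and Nampt fall among the 4211 tested genes with a mean of 20 to 40 counts, of which 6.01% were called higher. Adipoq and Rbp4 fall among 4584 with a mean of 10 to 20, of which 3.45% were called higher.

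The growth factor IGF-1 and the NAD enzyme lay on the other side. Igf1 (ENSMUSG00000020053, chr10:87858265-87937042) had 54, 49 and 76 counts, or 58.2, 48.5 and 71.6 after normalization. Both Flag-IP libraries were below IgG-IP, at a log2 fold change of -0.43 ± 0.34 (SE; edgeR adjusted p = 0.466). An antisense RNA gene, Igf1os in the annotation and Gm16176 in the count table, overlaps the start of Igf1 on the opposite strand and had 38, 32 and 32 counts. Whether the counting used strand is not stated, so reads of this pair may not be separated, although no exon of one overlaps an exon of the other. Nampt (ENSMUSG00000020572, chr12:32819545-32853349) had 26, 25 and 32 counts, close to each other in all 3 libraries, and differed by -0.19 ± 0.48 in log2 (SE; edgeR adjusted p = 0.850). The noncoding gene Gdap10 within its span had 0, 4 and 4 counts. Macrophages also make IGF-1, and the summed normalized counts of the macrophage markers were 271, 215 and 313. Their part in the Igf1 value was not tested.

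**Figure D2:**
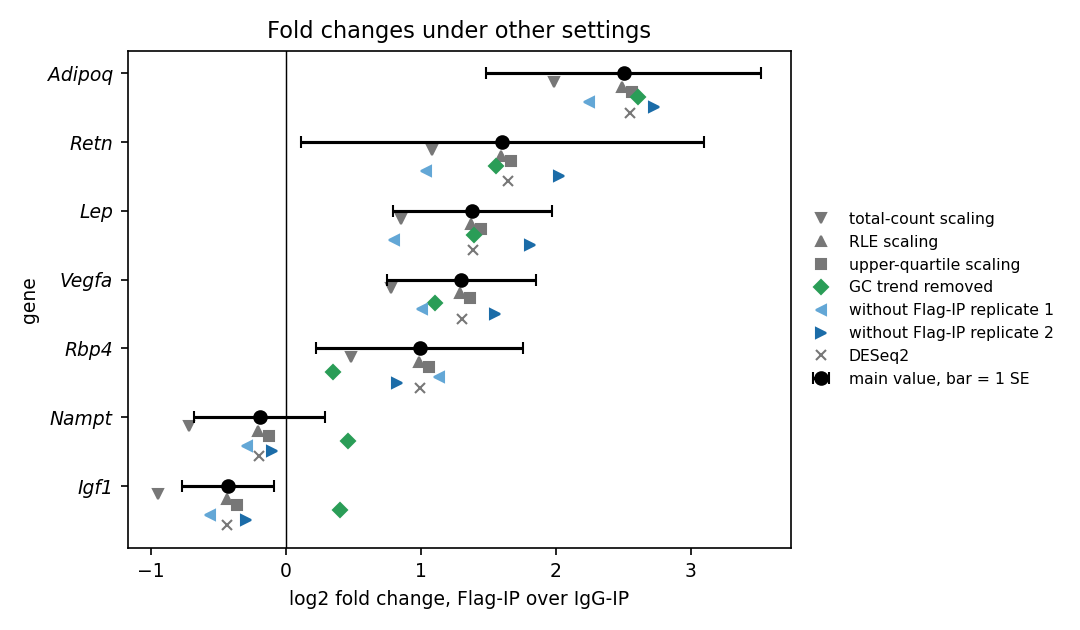
Log2 fold change of Flag-IP over IgG-IP for the 7 tested genes (black, with 1 SE) and the same value under other scalings, DESeq2, a trend on GC removed, and each Flag-IP library left out. Adipoq, Retn, Lep, Vegfa and Rbp4 stay to the right of 0 in all settings drawn, and Igf1 and Nampt cross it with the GC trend removed.

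Between the Flag-IP libraries, 7 of the 8 genes had more normalized counts in Flag-IP 1, where the share over all tested genes was 50.4%. For all but Lep the exact counting interval of the ratio of Flag-IP 1 to Flag-IP 2 included 1. Levels of different genes were compared as normalized counts per kilobase of exon, averaged over the 3 libraries. Rbp4 was highest at 10.5, then Adipoq at 8.71, Lep at 7.05, Cfd at 6.15, Vegfa at 6.12, Igf1 at 6.00, Nampt at 5.47 and Retn at 4.35. All stood between the 51.0th and the 79.0th percentile of 21303 annotated protein-coding genes, untested ones included. Against the 14920 tested protein-coding genes, whose median was 6.31, only Rbp4, Adipoq and Lep lay above the middle. The order of neighbours was not stable: in IgG-IP alone Igf1 (7.23) and Cfd (7.15) were highest and Retn (1.79) and Adipoq (2.05) lowest, whereas in Flag-IP 1 Adipoq (14.0) and Lep (11.9) were highest. Adiponectin thus stood at the 84.8th percentile in Flag-IP 1, the 77.7th in Flag-IP 2 and the 33.8th in IgG-IP.

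Of the 7 tested genes, the 2 with fold changes below 0 also had the lowest GC content. The longest transcripts of Igf1 and Nampt had GC contents of 38.0% and 40.3%, and those of the others 47.5% (Adipoq), 48.7% (Lep), 49.3% (Retn), 50.9% (Vegfa), 55.6% (Rbp4) and 58.4% (Cfd). Across 14920 tested protein-coding genes, which share the same 3 libraries, GC and log2 fold change had a Spearman's rho of 0.61. Genes within 1 percentage point of the GC of Igf1 had a median log2 fold change of -0.83 (420 genes), and those near Nampt -0.65 (897 genes), both below the values of these genes. Near Adipoq the median was -0.13 (1620 genes), near Lep -0.01, near Retn 0.04, near Vegfa 0.18 and near Rbp4 0.65. With the trend on GC removed, the log2 fold change of Igf1 was 0.40 ± 0.34 (SE) and that of Nampt 0.46 ± 0.49, both above 0. Under the same correction Rbp4 had 0.35 ± 0.77, Vegfa 1.11 ± 0.55, Lep 1.39 ± 0.59, Retn 1.56 ± 1.49 and Adipoq 2.61 ± 1.01, and none passed edgeR's test.

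**Figure D3:**
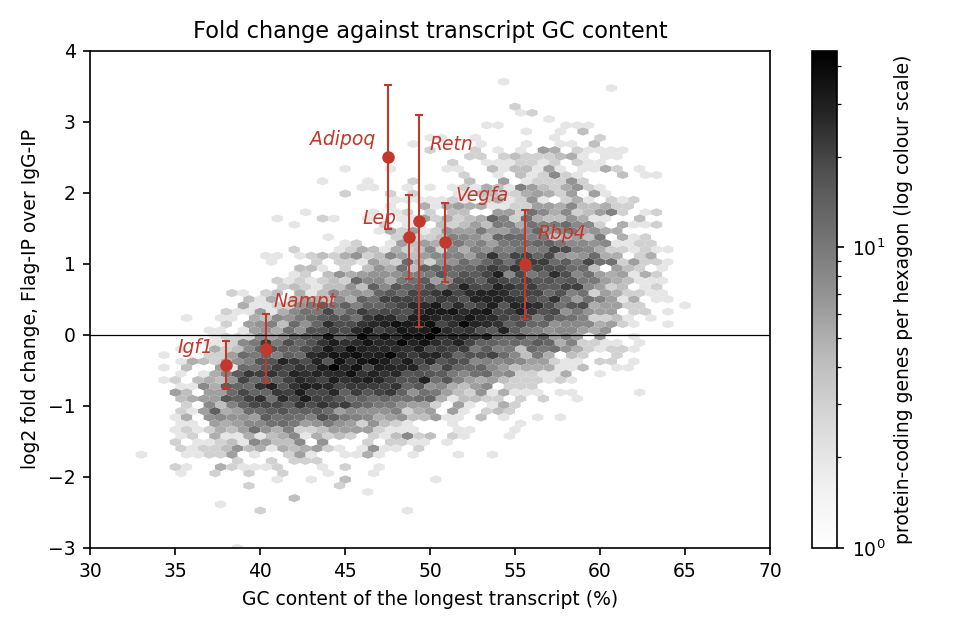
Log2 fold change of Flag-IP over IgG-IP against the GC content of the longest transcript, for 14765 tested protein-coding genes (grey hexagons, darker for more genes, 155 more lie outside the axes) and the 7 tested secreted adipocyte genes (red, bars of 1 SE). Igf1 and Nampt sit at 38.0% and 40.3% GC within the low end of the band, and Adipoq, at 47.5%, sits at 2.50, where genes of its GC content have a median of -0.13.

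Genes that work with these proteins were read from 7 lists. Of 99 list genes that were counted, 74 could be tested, of which 4 were called higher, 2 lower and 68 not called, with a median of 0.20. The shares over all tested genes were 5.58% higher and 5.77% lower, so these lists as a whole held no larger share of called genes. Of the 14 tested receptor genes, 0 were called in edgeR's quasi-likelihood test or its likelihood ratio test, and at an unadjusted p of 0.05 there were 3 higher and 2 lower. Their median was 0.11, and -0.41 with scaling to total counts. Lepr, the leptin receptor, had 52, 76 and 106 counts, and the adiponectin receptor gene Adipor2 had 82, 76 and 86. At the top of that list, Igf2r, which clears IGF-2, had 87, 85 and 56 counts, and Stra6, through which cells take up retinol from RBP4, had 64, 91 and 51. The antisense gene Airn overlaps Igf2r with 102, 122 and 94 counts, and Ccdc33 overlaps Stra6 with 87, 92 and 46, so both values are uncertain. Of the proteins that bind IGF-1 and RBP4 in plasma, 0 of 5 tested genes were called by either edgeR test and 1 was higher at an unadjusted p of 0.05, with Igfbp4 at 14, 35 and 12 counts and Igfbp2 at 43, 22 and 17.

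In the complement pathway that adipsin starts, C3, its central component, was higher in Flag-IP with 81, 43 and 14 counts (2.28 ± 0.46 in log2, SE; edgeR adjusted p = 3.92e-05). Without Flag-IP 1 the value was 1.68. It was the only one of 6 tested genes called, and the other 5 had values below 0, down to -1.08 ± 0.55 for Cr1l (19, 10 and 34 counts). Transcript GC was 53.3% for C3 and 39.1% to 47.1% for the other 5. The median of the 6 was -0.65, and -0.06 with the GC trend removed, where C3 was still called. Among paralogs, Vegfc, the lymphatic vessel growth factor, was lower with 39, 58 and 118 counts (-1.15 ± 0.31, edgeR adjusted p = 0.00523, and 0.122 with the GC trend removed), in contrast to the values of Vegfa. That difference between the 2 genes was not tested. The other 13 of 14 paralogs tested were not called, C1qtnf7 (62, 93 and 96, with an antisense gene over it) included.

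Of the genes that fold and export adiponectin, Calr, a chaperone of the endoplasmic reticulum, was higher with 29, 18 and 2 counts (log2 fold change 3.61 ± 0.93, SE), as was Gga1, a sorting adaptor of the Golgi (24, 28 and 4; 2.79 ± 0.78, and 1.86 with the GC trend removed, where it was not called). Erp44, which retains adiponectin in the secretory pathway, was lower (38, 49 and 99; -1.06 ± 0.33, and -0.49 with the GC trend removed, where it was not called, nor was it with the likelihood ratio test). Ero1l, the oxidase that works with it, had 15, 24 and 37 counts and was not called. Calr and Gga1, at 2 and 4 counts in IgG-IP, passed the filter only through Flag-IP. Of 11 tested genes of NAD salvage and use, 0 were called by either edgeR test, and Parp1 (46, 41 and 24) was the 1 with an unadjusted p under 0.05. Nadsyn1 had 36, 22 and 20 counts.

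Among other secreted adipocyte proteins, 1 of 15 tested genes was called. Nrg4, a growth factor that fat releases, was higher with 3551, 3203 and 1965 counts (log2 fold change 0.92 ± 0.24, SE), and was not called with scaling to total counts or with the likelihood ratio test. Lpl, the lipase that fat cells send to the vessel wall, had 3108, 1996 and 2666 counts. Angptl2 had 29, 30 and 12 and lies opposite Ralgps1 on the other strand, which had 257, 222 and 191.

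**Figure D4:**
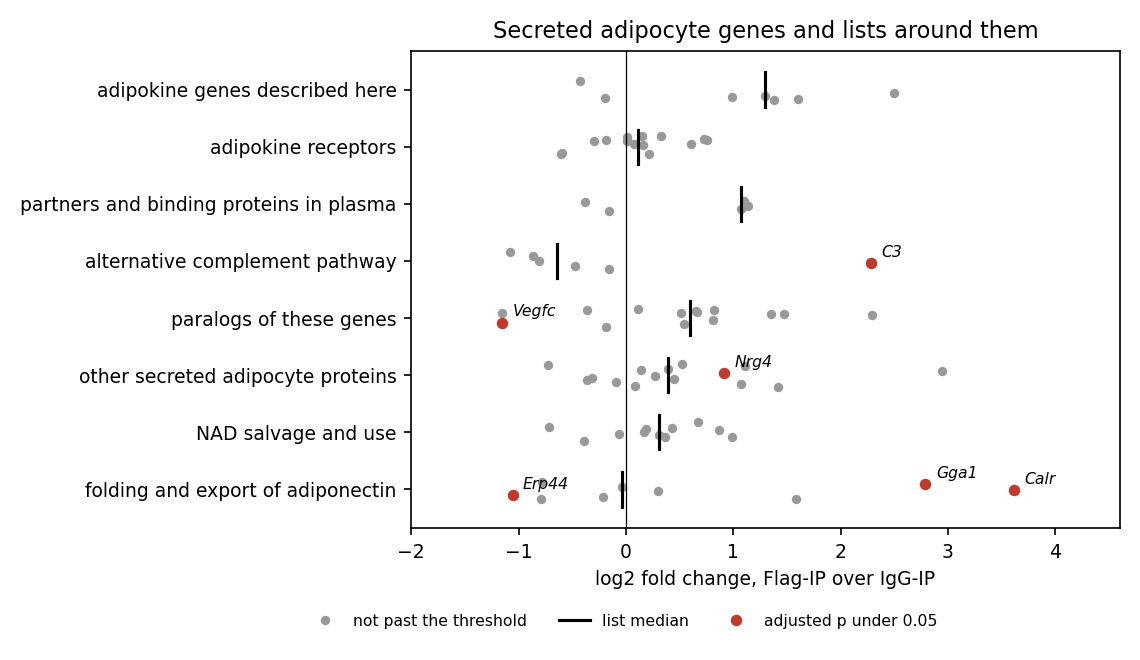
Log2 fold change of Flag-IP over IgG-IP for tested genes of the secreted adipocyte set and of the 7 lists around it, 1 point per gene, with list medians as black bars and genes past an edgeR adjusted p of 0.05 in red. Of the lists drawn, the adipokine genes have the highest median, 1.30, with none past the threshold. The partners and binding proteins in plasma have 1.07. With no filter beyond 1 count these medians are 1.09 and 1.02, and with the GC trend removed 1.11 and 0.13. Adipoq, Retn, Calr and Gga1 passed the filter only through Flag-IP, and Cfd was left out. Past it are 6 list genes: C3, Nrg4, Calr and Gga1 above 0, Vegfc and Erp44 below. Lists of cell type markers are not drawn, and their medians run from -1.74 (blood cells) to 1.44 (skeletal muscle).

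The pattern of a gene over 3 libraries is weakly defined. Among 122 tested genes of the fixed lists, the nearest to Lep by Euclidean distance in log2 CPM were Myh4 of skeletal muscle (distance 0.40; 47, 22 and 14 counts) and Gpx3 (0.44; 31, 15 and 12). Of all tested genes, 59 lay at least as near to Lep as Myh4 did. Nearest to Igf1 were Itgam of macrophages (0.32; 61, 46 and 63), Igfbp7 (0.44; 46, 62 and 66) and Dpp4 (0.45; 63, 63 and 86), with 153 of all tested genes at least as near as Itgam.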

How the data were processed

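The authors deposited unnormalized read counts for each Ensembl gene, 1 column per library, and each column name matches a sample number in the labels. Per the submitters' processing notes, CASAVA 1.7, Bowtie 0.12.2 and build mm8 were used. For the counting step, the program, annotation and use of strand are not given in the sources used. Positions, exon lengths and sequences come from GENCODE M21 (GRCm38), matched by Ensembl identifier for 37693 of 39179 genes, and GC from the longest basic transcript. Genes were kept by edgeR's filterByExpr (minimum count 10), scaled by TMM (factors 0.840, 0.936 and 1.27) and tested with edgeR 4.0.16 in R 4.3.3, with Benjamini-Hochberg adjustment over all 17587 genes and a threshold of 0.05. The fit has 1 residual degree of freedom and a common dispersion of 0.0359. The code was run on counts simulated at that same dispersion, in which only genes with a mean of at least 20 were changed. That run does not show whether changes in genes with fewer counts are found, nor what a different spread in IgG-IP would do. The SE is the fold change divided by the square root of F. Normalized counts are counts per effective library size times its mean. Log2 CPM used a prior count of 2. Count ratios have exact binomial intervals, counting error only.

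The members and lists were chosen with earlier results of these data known. Named besides the members were, per list, the 2 genes of largest fold change with a mean of at least 20 counts, every called gene of a list, the 3 nearest patterns for Lep and Igf1 (1 of them is not reported here), Fto and overlapping genes. Adipor2, Lepr and Lpl, and those that appear only in the closing section, were named after their values were seen. Alternatives were other scalings, filters and tests, removal of a lowess trend on GC, other prior counts and leaving out each Flag-IP library. The lipid gene list was not used, since it holds none of the 8 genes.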

Additional observations from a re-analysis of the deposited data

How the results depend on the processing

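With edgeR's likelihood ratio test and a common dispersion, 1 of the 7 tested genes (Adipoq) was called higher in place of 0. Under RLE, upper-quartile and total-count scaling, no filter, a mean of at least 50 counts and a GC trend removed, 0 were called in either direction. DESeq2 gave no adjusted p for any of the 7, so it has no count. At a mean of at least 50 counts only Igf1 was tested, at -0.33. With the GC trend removed the log2 fold changes of Igf1 and Nampt were 0.40 and 0.46, in place of -0.43 and -0.19. Leaving out a Flag-IP library gives values with no test, with a median over the 7 of 1.01 to 1.55 and no change of direction for any of them. Both Flag-IP libraries were above IgG-IP for 5 of the 8 genes under every scaling tried, a check added after seeing the data, while the share over all tested genes was 40% with RLE, 42.9% with upper-quartile and 21.5% with total-count scaling. The number below was 3, and 2 with upper-quartile scaling, against shares of 39.3%, 36.2% and 61.7%. Total-count scaling shifted the median log2 fold change of all genes by -0.52 and changed the genes called from 981 higher and 1015 lower to 342 and 3008, against 395 and 358 with the GC trend removed, 743 and 944 with no filter, and 131 and 145 for DESeq2, where the adjusted p was missing for 15684 of the 17587 genes. No paired analysis was made, because the labels do not pair the libraries and IgG-IP is a single library. Low counts limit these values, as for most tested genes, and IgG-IP has no replicate.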

Other observations

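Several further genes of proteins that fat tissue secretes had too few counts to be tested. Apln, the gene for apelin, had 6 and 8 counts with the Flag antibody and 0 with IgG, and Rarres2, the gene for chemerin, had 6, 6 and 0 in the same order. The inflammatory genes Tnf (2, 6 and 0), Il6 (6, 2 and 6) and Ccl2 (7, 2 and 2) were as weakly counted, and the resistin paralog Retnlg had 0 counts in all 3 libraries. Fndc5, the precursor gene of irisin, had 8, 22 and 2 counts and passed the filter only through Flag-IP 2. Its log2 fold change of 2.94 ± 1.16 (SE), the highest of the secreted list, did not pass edgeR's test. Nrg4 and Lpl held most of the counts of that list, which summed to 7156, 5758 and 5146.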
